A study of Danio rerio with 2 samples.

Results

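Lactotropes are the pituitary cells that make prolactin. In these data they were taken as prl-rich cells, chosen on the measured UMIs (unique molecular identifiers, each standing for 1 captured transcript). A barcode was a member when it held at least 200 detected genes, at most 20% of UMIs from mitochondrial genes, at least 1000 UMIs, at least 2% of UMIs from *prl*, under 5% from *gh1*, under 1% from *pomca* and under 1% from *lhb* and *fshb* together. Of 4065 barcodes that passed the filters on genes, mitochondrial share and depth, out of 8991 in the matrices, 107 were members, 35 from the CCK1/2-KO library and 72 from the WT library.

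The pituitaries came from 6-month-old male zebrafish, either *cck1*-/-;*cck2*-/- fish, which carry CRISPR/Cas9 deletions in both cholecystokinin genes, or WT fish. The tissue of 30 fish was pooled per genotype, dissociated with trypsin, EDTA and DNase II, and profiled as 1 droplet library per genotype. Genotype, library and pool cannot be told apart, and no difference below has a replicate check or a p-value. All intervals are 95% and cover counting error only.

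Prolactin is a peptide hormone of the growth hormone family. In fish it is best known for its part in freshwater osmoregulation, and across vertebrates dopamine acting through D2-type receptors holds its release down. Lactotropes and somatotropes share the lineage factor Pou1f1, and in zebrafish lactotropes lie in the anterior part of the gland.

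The CCK1/2-KO library held 15910570 UMIs over 3755 barcodes, and the WT library held 22358017 UMIs over 5236 barcodes. Of the deleted genes, *ccka* was listed with 14 UMIs in 12 barcodes of the CCK1/2-KO library and 144 UMIs in 14 barcodes of the WT library, 122 of them in 1 barcode. Which of *cck1* and *cck2* it stands for is not given in the sources used here, and its UMIs do not show whether the deleted part was read. The libraries shared 11 barcode sequences, and no member carried one. Scrublet's automatic threshold marked 0 of 3559 CCK1/2-KO and 0 of 5070 WT scored barcodes, so it did not work as a doublet caller here. Removing the 101 CCK1/2-KO and 206 WT top-scoring barcodes instead removed no member. For comparison the same filters gave 165 CCK1/2-KO and 282 WT *gh1*-rich cells, 46 CCK1/2-KO and 147 WT *pomca*-rich cells, and 12 CCK1/2-KO and 66 WT gonadotropin-rich cells. These 3 classes are called the other hormone cells, 223 in the CCK1/2-KO library and 495 in the WT library.

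Prl-rich cells made up 1.99% of the 1757 passing barcodes of the CCK1/2-KO library (Clopper-Pearson interval 1.39 to 2.76%) and 3.12% of the 2308 of the WT library (2.45 to 3.91%). Counted among the 4 hormone classes alone, the shares were 13.6% in the CCK1/2-KO library (9.63 to 18.4%) and 12.7% in the WT library (10.1 to 15.7%). The intervals of the libraries overlapped for both shares, which is not a test of a difference. Among passing barcodes each library's share lay outside the interval of the other, and among hormone cells inside it. The makeup of the other hormone cells also differed, with *gh1*-rich cells at 64.0% of hormone cells in the CCK1/2-KO library and 49.7% in the WT library. Few cells lay near the 2% limit. Between 1 and 2% *prl* there was 1 CCK1/2-KO cell, at 1.23%, and there were 4 WT cells, the highest at 1.97%, while 3 members of each library held between 2 and 4%. The *pomca* limit left out 2 CCK1/2-KO and 3 WT cells that met the *prl* limit. The limit of 1000 UMIs was the larger cut, since 13 CCK1/2-KO and 45 WT barcodes met the *prl* limit below it.

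*prl*, encoding prolactin, was the rule's own gene, and its level in the members is a description. It supplied 62053 UMIs in CCK1/2-KO members, 13.8% of all their UMIs (exact interval 13.6 to 13.9%), and 144551 UMIs in WT members, 15.2% (15.1 to 15.3%). Per cell the share had a lowest value of 2.82%, a median of 13.7% and a highest of 44.1% in the CCK1/2-KO library, against 2.19%, 14.5% and 28.7% in the WT library. The ranges overlapped, and the CCK1/2-KO cells spread farther at the top. A share of at least 20% was reached by 10 of 35 CCK1/2-KO cells and 15 of 72 WT cells. The pooled share of the CCK1/2-KO library leaned on 2 very deep cells of 56199 and 49047 UMIs, which held 23.3% of its member UMIs, and without them it was 16.7%. Members had a median of 10715 UMIs in the CCK1/2-KO library and 13805 in the WT library.

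**Figure D1:**
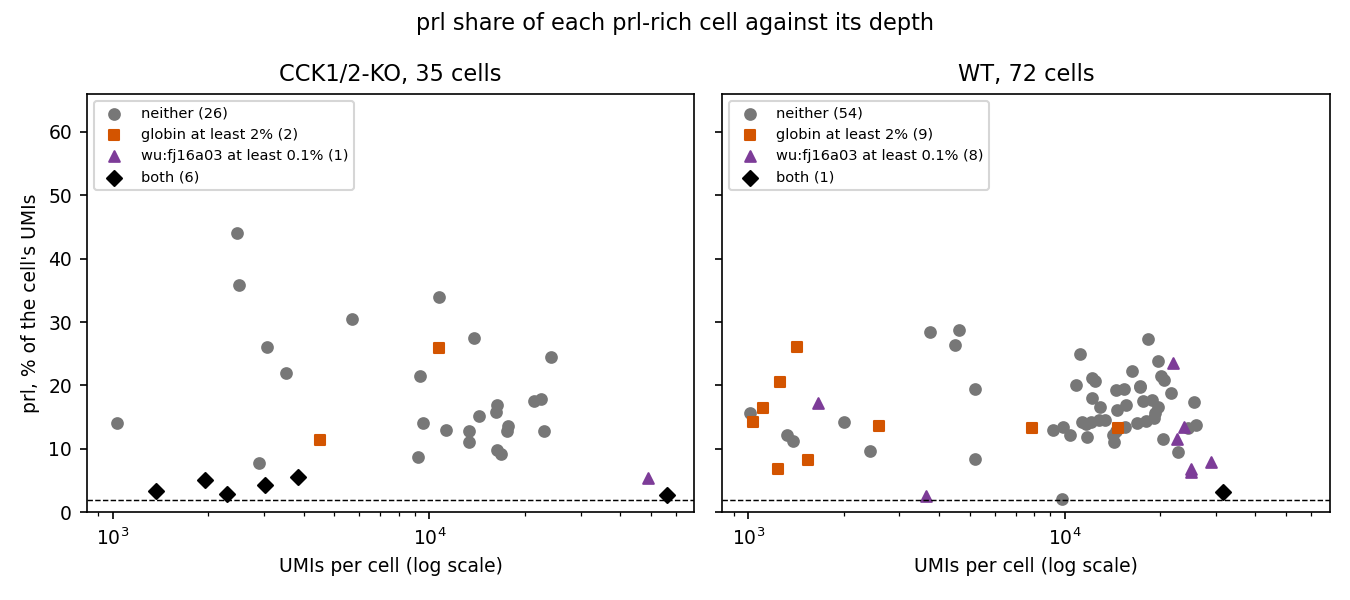
Percent of a cell's UMIs from *prl* (y axis) against its UMIs (x axis, log scale) for the 35 CCK1/2-KO and 72 WT prl-rich cells, with the 2% limit dashed. Squares are cells with at least 2% globin UMIs, triangles cells with at least 0.1% *wu:fj16a03* UMIs, and diamonds cells with both, and 6 of the diamonds are CCK1/2-KO cells with under 6% *prl*.

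Outside the members *prl* was a trace transcript. It made up 0.00583% of UMIs in CCK1/2-KO *gh1*-rich cells and 0.0122% in WT *gh1*-rich cells. In barcodes dominated by globin, which should not transcribe it, a *prl* UMI was found in 42.8% of 1052 CCK1/2-KO and 65.4% of 2646 WT barcodes at median depths of 894.5 (CCK1/2-KO) and 748 (WT) UMIs, and it made up 0.0225% of their UMIs in the CCK1/2-KO library and 0.05% in the WT library. Free *prl* RNA was thus measurable in both libraries, at a higher level in WT. The second prolactin gene, *prl2*, had 0 UMIs in members of either library.

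Other pituitary hormones were scarce in the members, as the rule required for the main ones. *gh1*, encoding growth hormone, had 146 UMIs in CCK1/2-KO members, with 0 cells at or above 1% of UMIs, and 935 UMIs in WT members, with 4 such cells. These were 0.0324% of CCK1/2-KO and 0.0982% of WT member UMIs. Globin-dominated barcodes held more, 0.109% in the CCK1/2-KO library and 0.359% in the WT library, where 1082 reached 1%. The 4 WT members held 3642, 1238, 1036 and 1264 UMIs, with globin at 0.549%, 3.88%, 11.7% and 7.91%. Whether the *gh1* UMIs of members were free RNA was not tested. *lhb*, the luteinizing hormone beta subunit, had 445 UMIs in CCK1/2-KO members and 31 in WT members. Of the 445, 413 were in a cell of 56199 UMIs, 18 in a cell of 2285 and 13 in a cell of 1371. Relative to depth these cells were similar, each under the rule's 1% limit. Globin made up 11.3%, 9.32% and 13.3% of their UMIs. They also held 259, 10 and 7 of the 288 CCK1/2-KO UMIs of *cga*, the shared glycoprotein hormone alpha subunit. In WT members 62 of the 112 *cga* UMIs were in 1 cell. That cell also held 44 of the 66 WT member UMIs of *tshba*, the thyrotropin beta subunit.

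The members were then described by the 3 markers given with the label that the rule did not use, and 1 of the 3 followed it. The label and its markers were chosen with earlier results of these data known, so this is not an independent check. *nppal*, which encodes a natriuretic peptide, marked the members of both libraries. It had 904 UMIs in 31 of 35 CCK1/2-KO cells and 2256 UMIs in 68 of 72 WT cells. As UMIs per 1000000 UMIs outside the hormone genes, the unit of every level below, this was 2329 (2180 to 2486) in CCK1/2-KO members and 2800 (2685 to 2918) in WT members. In the other hormone cells it was 1.41 in the CCK1/2-KO library and 4.74 in the WT library, giving log2 ratios of 10.69 (9.33 to 12.57) in the CCK1/2-KO library and 9.20 (8.60 to 9.88) in the WT library. After thinning every cell to 1000 UMIs, 67.2% of CCK1/2-KO and 74.8% of WT members were expected to hold a *nppal* UMI, against 0.392% of the 442 CCK1/2-KO and 0.889% of the 812 WT globin-dominated barcodes of that depth.

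*pou1f1*, the lineage factor of lactotropes, somatotropes and thyrotropes, was present but low. It had 61 UMIs in 15 CCK1/2-KO members and 108 UMIs in 38 WT members, levels of 157 (120 to 202) in the CCK1/2-KO library and 134 (110 to 162) in the WT library. *gh1*-rich cells held 613 in the CCK1/2-KO library and 557 in the WT library, while *pomca*-rich cells, which belong to another lineage, held 13.4 in the CCK1/2-KO library and 4.69 in the WT library. The members therefore lay between those classes. *rasd3*, a Ras-family gene, did not mark the cells, with 4 UMIs in 1 CCK1/2-KO member and 62 UMIs in 7 WT members. Of these 62 *rasd3* UMIs, 45 were in the WT cell that also held 62 *cga* and 44 *tshba* UMIs. The name lactotrope thus rests on *prl*, the rule's own gene, and on *nppal*, a marker given with the label. The cells are called prl-rich below.

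Not all members were alike in the genes of other cell types. In 7 CCK1/2-KO and 9 WT members *wu:fj16a03* reached 0.1% of UMIs, a limit set after the values were seen. These cells also held the UMIs of *stra6*, a retinol uptake receptor (123 UMIs in the 7 CCK1/2-KO cells against 1 in the other 28, and 177 in the 9 WT cells against 1 in the other 63), of *itgb4*, an integrin of epithelial attachment (143 against 0 in CCK1/2-KO and 124 against 2 in WT), and of *krt4*, a keratin (62 against 0 in CCK1/2-KO and 67 against 2 in WT). *cyp27c1* and *cd9b* split much as these did. The split was less sharp for *cldnb* (168 against 35 in CCK1/2-KO and 361 against 75 in WT). *epcam* was held by most of the other members too (122 against 186 in CCK1/2-KO and 220 against 489 in WT). The CCK1/2-KO counts leaned on the 2 deepest members. A cell of 49047 UMIs held 444 of the 640 *wu:fj16a03*, 97 of the 123 *stra6* and 86 of the 143 *itgb4* UMIs. A cell of 56199 UMIs held 51 of *itgb4*. Of the 7 cells 6 held a *stra6* UMI, 5 an *itgb4* UMI and 7 a *krt4* UMI. The 7 included the barcodes of 56199, 2285 and 1371 UMIs that were similar relative to depth. Whether those barcodes came from separate cells was not tested. The *wu:fj16a03* cells had less *prl*. Their median was 4.39% against 15.5% in the other CCK1/2-KO members and 7.88% against 14.9% in the other WT members. *wu:fj16a03* passed the limit in 97 CCK1/2-KO and 145 WT barcodes outside the 4 hormone classes, and in 1.35% of CCK1/2-KO and 1.41% of WT other hormone cells. These members carried 26.1% of the member UMIs in the CCK1/2-KO library and 19.4% in the WT library.

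A second kind held red blood cell RNA. Globin UMIs were at least 2% of the total, again a limit set after the values were seen, in 8 CCK1/2-KO and 10 WT members, and 6 CCK1/2-KO and 1 WT cells were of both kinds. Red blood cell markers made up 2.06% of member UMIs in the CCK1/2-KO library (cell median 0.279%, highest 18.1%) and 0.632% in the WT library (cell median 0.439%, highest 11.7%). Below 4000 UMIs, 5 of 11 CCK1/2-KO and 7 of 15 WT members were globin-marked. Without both kinds 26 CCK1/2-KO and 54 WT cells were left, and the pooled *prl* share was 16.9% in the CCK1/2-KO library and 16.6% in the WT library. The *wu:fj16a03* cells left out had less *prl*, so a higher share without them followed from the choice. Why the pooled share of all CCK1/2-KO members was the lower one was not tested. The part of both kinds of members in the other results was not tested beyond the values without them given below.

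Markers of other neighbours were near 0. Endothelial markers made up 0.000887% of member UMIs in the CCK1/2-KO library and 0.00200% in the WT library, with 7 (CCK1/2-KO) and 6 (WT) of 9 genes at 0. Myeloid markers made up 0.00155% in CCK1/2-KO and 0.00473% in WT members, with 7 (CCK1/2-KO) and 4 (WT) of 11 genes at 0. Mesenchymal markers made up 0.00510% in CCK1/2-KO and 0.0140% in WT members, with 1 (CCK1/2-KO) and 2 (WT) of 9 at 0. Lymphocyte markers made up 0.00111% in CCK1/2-KO and 0.000841% in WT members, with 6 (CCK1/2-KO) and 7 (WT) of 9 at 0. The highest cell of any of these 4 lists held 0.412%, in the WT library. Pituicyte and glia markers stood at 0.00554% in the CCK1/2-KO library and 0.0500% in the WT library, where 1 cell held 1.54%. Oligodendrocyte, neuron and proliferation markers stood at 0.0140%, 0.0255% and 0.00576% in the CCK1/2-KO library, against 0.0107%, 0.0216% and 0.00420% in the WT library.

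Which genes separate prl-rich cells from the other hormone cells was asked within each library. A gene was ranked when the 2 sets of cells together held at least 50 of its UMIs in each library and no single cell held more than 20% of the UMIs of the set with the higher level. Of 4899 ranked genes, 123 were at least 2-fold higher in prl-rich cells in both libraries (2.51%) and 883 at least 2-fold lower in both (18%). The ranked genes had a median log2 ratio of -0.77 in the CCK1/2-KO library and -0.49 in the WT library. The other hormone cells were the larger set and could meet the limit of 50 UMIs alone. *si:dkey-14d8.6*, for example, had 2 UMIs in CCK1/2-KO members against 1104 in the other hormone cells. The ranking thus favoured genes lower in members, and these medians and counts cannot be read as a trait of the members alone. The 123 were 73.2% of the 168 genes past 2-fold higher in the CCK1/2-KO library and 56.4% of the 218 in the WT library, and 11 genes went past 2-fold in opposite directions. Without the limit on 1 cell, 6986 genes were ranked and 425 were higher, which raised the share of higher genes among those past 2-fold to 31.0%, against 12.2% with it.

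Of the 20 genes that separated the members most, *nppal* led. *gper1*, encoding the G protein-coupled estrogen receptor, followed. It had 52 UMIs in 17 CCK1/2-KO members, a level of 134 (100 to 176), and 80 UMIs in 33 WT members, a level of 99.3 (78.7 to 124). In the other hormone cells it had a level of 0.352 in the CCK1/2-KO library, a log2 ratio of 8.57, and 0 UMIs in the WT library, where the ratio was at least 7.26 with 3 counts in place of 0. It was also near absent from globin-dominated barcodes, with a UMI in 0 of the 1052 CCK1/2-KO ones, which allows a share of up to 0.285%, and in 0.0756% of the WT ones, so few of its UMIs in these classes lay outside prl-rich cells.

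*MAP3K15*, a kinase of the stress-activated MAP kinase cascades, had 178 UMIs in 30 CCK1/2-KO members and 258 UMIs in 55 WT members. Its log2 ratio over the other hormone cells was 7.02 (6.11 to 8.11) in the CCK1/2-KO library and 6.73 (5.96 to 7.62) in the WT library. *prss1*, which encodes a trypsin, stood at 652 (574 to 737) in CCK1/2-KO members and 645 (591 to 703) in WT members, against 6.34 (CCK1/2-KO) and 13.2 (WT) in the other hormone cells. These genes were found in most members, since *prss1* had a UMI in 30 of 35 CCK1/2-KO and 58 of 72 WT cells. The gene listed only as ENSDARG00000056909 had log2 ratios of 7.14 in the CCK1/2-KO library and 8.20 in the WT library.

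Transcription factors were among the leading genes. *tfcp2l1*, of the grainyhead-like family, stood at 564 (492 to 644) in CCK1/2-KO members and 432 (388 to 480) in WT members, against 6.34 (CCK1/2-KO) and 20.1 (WT) in the other hormone cells of each. Its log2 ratio was 6.47 in the CCK1/2-KO library and 4.43 in the WT library. *tead3b*, a TEA-domain factor, had ratios of 3.73 in the CCK1/2-KO library and 3.48 in the WT library. Both were past 2-fold in each library on their own.

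A further group encodes proteins of the cell surface and membrane. *DPP6*, in mammals an auxiliary subunit of Kv4 potassium channels, had log2 ratios of 4.20 (3.56 to 4.88) in the CCK1/2-KO library and 5.45 (4.95 to 6.00) in the WT library. *ADGRB1* (ENSDARG00000078529), an adhesion G protein-coupled receptor, stood at 930 (837 to 1031) in CCK1/2-KO members and 1503 (1419 to 1590) in WT members, against 70.8 (CCK1/2-KO) and 102 (WT) in the other hormone cells. *gpc5c*, a glypican, stood at 430 (367 to 501) in CCK1/2-KO members and 681 (625 to 741) in WT members, against 13.2 (CCK1/2-KO) and 32.5 (WT) in *gh1*-rich cells. Gonadotropin-rich cells shared the glypican, at 186 in the CCK1/2-KO library and 60.9 in the WT library. *NCAN*, a proteoglycan, had ratios of 4.17 in the CCK1/2-KO library and 3.47 in the WT library, and gonadotropin-rich cells held 140 in the CCK1/2-KO library and 137 in the WT library. The tetraspanin *cd82a* (4.14 in CCK1/2-KO and 3.39 in WT) and the anion exchanger *slc4a3* (2.91 in CCK1/2-KO and 3.47 in WT) completed this group.

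Metabolic and folding genes were represented by *cox8b*, a subunit of cytochrome c oxidase, and *serpinh1b*, the collagen chaperone of the endoplasmic reticulum. *cox8b* stood at 2131 (1988 to 2281) in CCK1/2-KO members and 833 (771 to 898) in WT members, with log2 ratios over the other hormone cells of 4.78 in the CCK1/2-KO library and 5.47 in the WT library. *serpinh1b* stood at 2223 (2078 to 2377) in CCK1/2-KO members and 1400 (1319 to 1484) in WT members, with ratios of 3.37 in the CCK1/2-KO library and 3.31 in the WT library. The other named genes were *dnah5l*, *pcp4a*, *PLCL1*, *si:ch211-119o8.4* and *si:ch211-195b15.8*, with ratios between 3.01 and 5.68 in the CCK1/2-KO library and between 3.03 and 5.38 in the WT library. Without the members rich in *wu:fj16a03* or globin, each of these 20 genes was still at least 2-fold higher in both libraries.

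**Figure D2:**
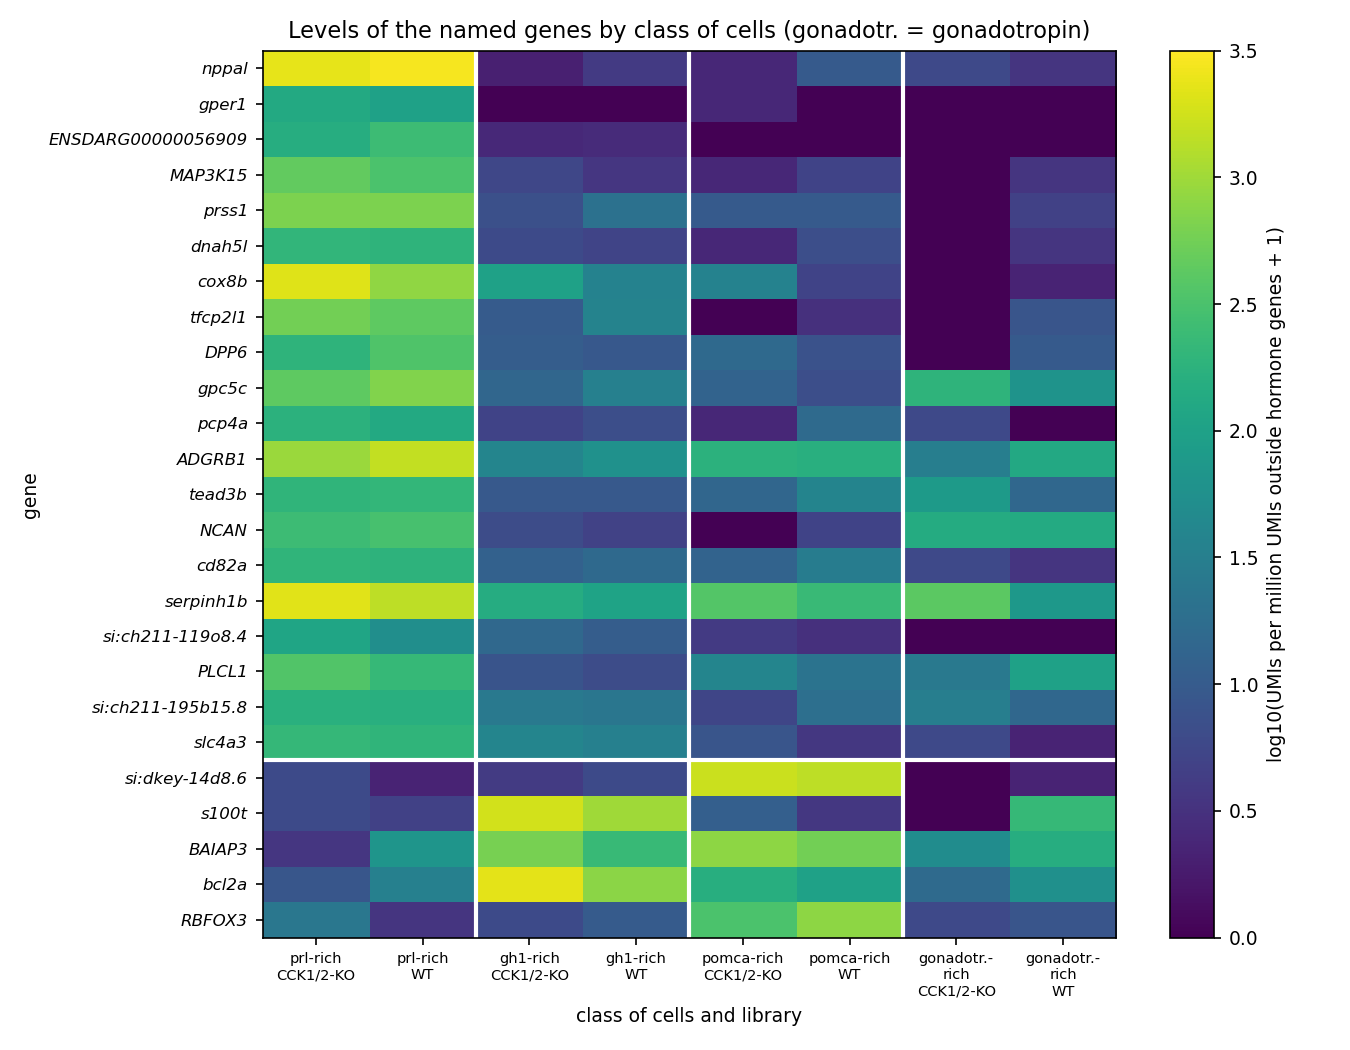
Level of the 20 highest (top) and 5 lowest (bottom) named genes, as log10 of 1 plus UMIs per 1000000 UMIs outside the hormone genes (colour), in the 4 hormone classes of the CCK1/2-KO and WT libraries. The prl-rich columns are brightest for the upper 20 genes, *gpc5c* and *NCAN* are also seen in gonadotropin-rich cells, and the lower 5 belong to *gh1*-rich or *pomca*-rich cells.

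At the other end, the genes lowest in members were those of the other classes. *s100t*, an S100 calcium-binding protein gene, stood at 5.15 in CCK1/2-KO members and 3.72 in WT members, against 1816 (CCK1/2-KO) and 1017 (WT) in *gh1*-rich cells. *si:dkey-14d8.6* stood at 5.15 in CCK1/2-KO members and 1.24 in WT members, against 1636 (CCK1/2-KO) and 1409 (WT) in *pomca*-rich cells. The survival gene *bcl2a* had log2 ratios over the other hormone cells of -7.69 in the CCK1/2-KO library and -3.74 in the WT library. *RBFOX3* (ENSDARG00000010083), an RNA-binding splicing regulator, had ratios of -1.77 in the CCK1/2-KO library and -6.72 in the WT library. Set against *gh1*-rich cells alone, the CCK1/2-KO log2 ratio was 0.76 for *si:dkey-14d8.6* and 2.19 for *RBFOX3*, so both turned round in that library. The counts there were small. *si:dkey-14d8.6* had 2 UMIs in 1 member and 6 in *gh1*-rich cells, and *RBFOX3* had 9 UMIs in 4 members and 10 in *gh1*-rich cells. In the WT library both stayed lower in members, at 1.24 against 5.13 for *si:dkey-14d8.6* and 2.48 against 8.97 for *RBFOX3*.

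**Figure D3:**
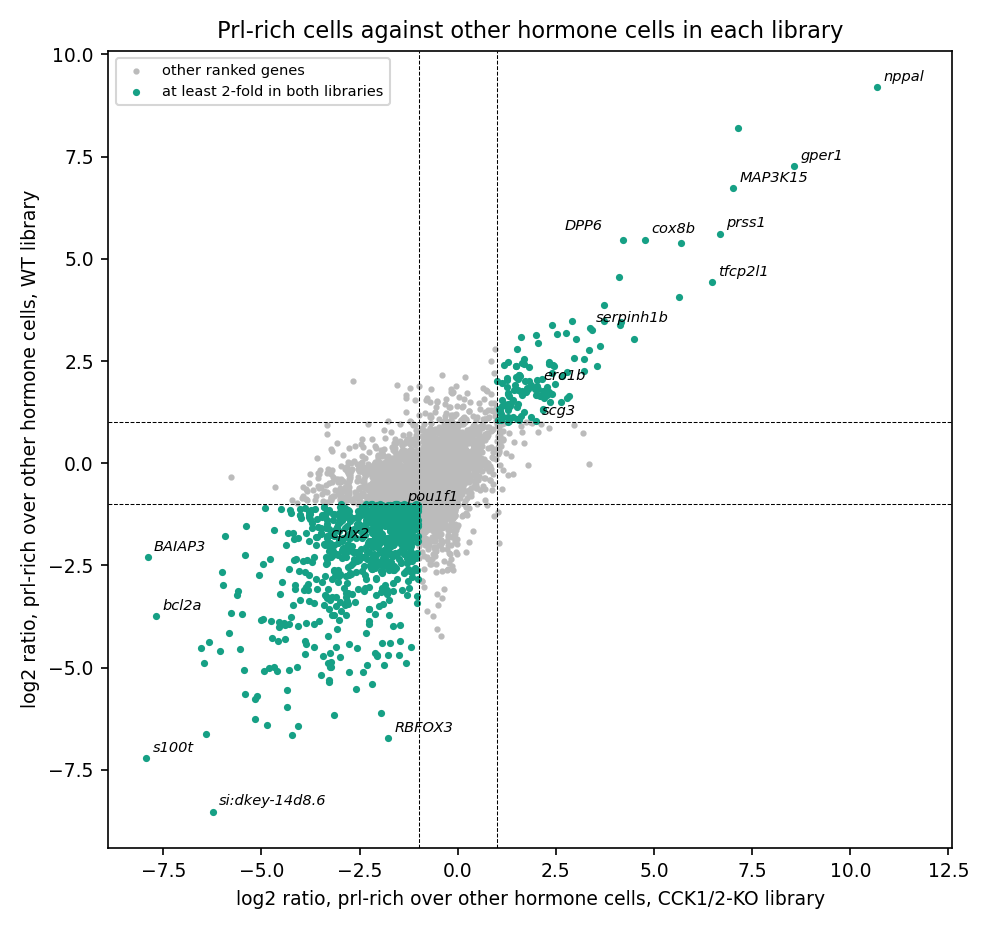
Log2 ratio of prl-rich over other hormone cells in the CCK1/2-KO library (x axis) and the WT library (y axis) for the 4899 ranked genes, with dashed lines at 2-fold. Green points are the 123 genes higher and 883 genes lower by at least 2-fold in both libraries, with *nppal* at 10.69 and 9.20.

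Each list of function below is set against all 4899 ranked genes, of which 2.51% were higher and 18% lower, with the medians of -0.77 (CCK1/2-KO) and -0.49 (WT) given above. Of 9 ranked lineage transcription factors, 0 were at least 2-fold higher and 5 lower, namely *pou1f1*, *pitx3*, *neurod1*, *eya1* and *nr4a2a*, with list medians of -1.01 in the CCK1/2-KO library and -1.59 in the WT library. *pou1f1* was close to 2-fold in the WT library, at -1.08, and came under it without the members rich in *wu:fj16a03* or globin, at -0.81. *eya1*, a transcriptional co-activator, stood at 294 (242 to 353) in CCK1/2-KO members and 230 (198 to 265) in WT members, against 1020 (CCK1/2-KO) and 900.3 (WT) in the other hormone cells. The homeobox gene *six1a* went the other way, at 97.9 (69.3 to 134) in CCK1/2-KO members and 75.7 (57.9 to 97.2) in WT members, against 9.16 (CCK1/2-KO) and 9.06 (WT). It was not ranked, because 1 cell held 23.7% of its UMIs in CCK1/2-KO members. *insm1b*, a zinc-finger gene of endocrine cells, stood at 428 in CCK1/2-KO members and 455 in WT members, against 138 (CCK1/2-KO) and 76.8 (WT), and was not ranked either.

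Dopamine and cholecystokinin receptors were sparse in the members. Both ranked dopamine receptors were lower in members. *drd2a*, a D2-type receptor, had 3 UMIs in CCK1/2-KO members and 0 in WT members, against 69 (CCK1/2-KO) and 272 (WT) UMIs in the other hormone cells, and *drd4-rs* had 2 UMIs in CCK1/2-KO members and 0 in WT members, against 298 (CCK1/2-KO) and 809 (WT). *drd2b*, not ranked, had 2 UMIs in CCK1/2-KO members and 7 in WT members. Over both libraries the members thus held a handful of D2-type UMIs, which at this depth does not show that the receptors are absent. Of the cholecystokinin receptors, the row listed as *CCKAR* had 0 UMIs in members of both libraries, *cckbra* had 0 in CCK1/2-KO and 2 in WT members, and *CCKBR* had 0 in CCK1/2-KO and 2 in WT members. They were sparse in the 223 CCK1/2-KO and 495 WT other hormone cells too. There *CCKAR* was found in 0 cells, *cckbra* in 2 CCK1/2-KO and 4 WT cells, and *CCKBR* in 2 CCK1/2-KO and 6 WT cells. The prolactin receptor gene *prlrb* had 13 UMIs in 7 CCK1/2-KO members and 40 UMIs in 17 WT members.

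Of the 8 ranked peptide hormone receptors 0 were higher and 3 lower (18% of all ranked genes were lower), with medians of -1.03 in the CCK1/2-KO library and -0.23 in the WT library. The 3 were the leptin receptor *lepr* (-1.44 in CCK1/2-KO and -1.76 in WT), the insulin receptor gene *insra* (-1.69 in CCK1/2-KO and -1.61 in WT) and *adcyap1r1a*, a receptor for PACAP (-3.88 in CCK1/2-KO and -1.10 in WT). Receptors with ample UMIs in members were the insulin-like growth factor receptor *igf1ra*, with 235 UMIs in 26 CCK1/2-KO and 510 UMIs in 53 WT cells, and the VIP and PACAP receptor *vipr2*, with 78 UMIs in 22 CCK1/2-KO and 125 UMIs in 40 WT cells. *htr2cl1*, related to serotonin receptors, had 72 UMIs in 3 CCK1/2-KO cells and 43 UMIs in 5 WT cells. It was therefore held by few members. Among 8 ranked steroid and thyroid hormone receptors 0 were likewise higher and 3 lower (*esr1*, *esr2b* and the glucocorticoid receptor *nr3c1*), with medians of -1.34 in the CCK1/2-KO library and -0.62 in the WT library. *esr2b*, a nuclear estrogen receptor, stood at 46.4 in CCK1/2-KO members and 24.8 in WT members, against 169 (CCK1/2-KO) and 108 (WT) in the other hormone cells. *esr2a*, a further nuclear estrogen receptor that was not ranked, stood at 33.5 in CCK1/2-KO members and 54.6 in WT members, against 54.6 (CCK1/2-KO) and 45.5 (WT). The estrogen receptors thus differed, with *esr1* and *esr2b* lower in members, *gper1* higher and *esr2a* not past 2-fold in either library.

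G protein and cAMP signalling had 4 of 19 ranked genes higher and 1 lower, against 2.51% higher and 18% lower among all ranked genes, and medians of -0.40 in the CCK1/2-KO library and -0.15 in the WT library. The inhibitory G protein alpha subunits *gnai2a* (1.28 in CCK1/2-KO and 1.30 in WT) and *gnai2b* (1.57 in CCK1/2-KO and 2.16 in WT) were both higher. So were *cremb*, encoding a CRE-binding regulator that responds to cAMP (1.96 in CCK1/2-KO and 1.82 in WT), and *pde10a*, a phosphodiesterase that breaks down cyclic nucleotides (2.02 in CCK1/2-KO and 1.68 in WT). The gene that was lower was *creb1a* (-1.56 in CCK1/2-KO and -1.35 in WT).

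The secretory apparatus differed gene by gene. Of 15 ranked granule and processing genes 1 was higher and 3 lower, near the 18% lower of all ranked genes, with medians of -0.58 in the CCK1/2-KO library and -0.34 in the WT library. *scg3*, a secretogranin of granule sorting, stood at 13906 (13538 to 14282) in CCK1/2-KO members and 14145 (13886 to 14407) in WT members, and every member held it. The other hormone cells held 3521 in the CCK1/2-KO library and 6903 in the WT library, and within them WT gonadotropin-rich cells, at 21705, had more than the members. The peptide-processing enzymes *cpe* (-1.74 in CCK1/2-KO and -1.36 in WT), *PAM* (-1.74 in CCK1/2-KO and -2.41 in WT) and *pcsk1* (a bound of -3.28 from 0 UMIs in CCK1/2-KO and -3.56 in WT) were lower. Of 20 ranked exocytosis genes 0 were higher and 5 lower, again near that share, and the medians of -0.57 in the CCK1/2-KO library and -0.36 in the WT library lay above those of all ranked genes. The 5 included the calcium sensor *syt1a* (-2.36 in CCK1/2-KO and -1.76 in WT) and the complexin *cplx2* (-3.41 in CCK1/2-KO and -1.98 in WT).

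Of 43 ranked genes of endoplasmic reticulum translocation and folding 1 was higher and 10 lower. The medians of -1.06 in the CCK1/2-KO library and -0.71 in the WT library lay below those of all ranked genes. The higher one was *ero1b*, an oxidase of disulfide bond formation, at 402 (341 to 470) in CCK1/2-KO members and 264 (230 to 302) in WT members, against 99.0 (CCK1/2-KO) and 71.4 (WT) in the other hormone cells. Its paralog *ero1a* was lower (-2.33 in CCK1/2-KO and -1.29 in WT), as were the translocon subunit *sec61a1* (-1.47 in CCK1/2-KO and -1.11 in WT) and protein disulfide isomerase *p4hb* (-2.06 in CCK1/2-KO and -1.08 in WT). Of 21 ranked channel genes 0 were higher and 4 lower, about the 18% lower of all ranked genes. The P/Q-type calcium channel gene *cacna1ab* (-5.83 in CCK1/2-KO and -4.16 in WT) and the Kv4 gene *kcnd3* (-5.56 in CCK1/2-KO and -4.53 in WT) were the lowest of these. *KCNQ3*, an M-current potassium channel, had 318 UMIs in 29 CCK1/2-KO and 335 UMIs in 57 WT members, but was not ranked.

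Among the lists with at least 5 ranked genes, immediate early genes had the median that lay farthest above that of all ranked genes in the WT library, at 0.67, and it was -0.01 in the CCK1/2-KO library. Of 10 ranked, 3 were higher and 0 lower, against 2.51% and 18% of all ranked genes. *jun* stood at 1458 (1340 to 1583) in CCK1/2-KO members and 1210 (1135 to 1288) in WT members, against 604 (CCK1/2-KO) and 368 (WT) in the other hormone cells. *atf3*, a stress-responsive factor, had log2 ratios of 1.46 in the CCK1/2-KO library and 1.90 in the WT library, and *gadd45ba* had 1.60 in the CCK1/2-KO library and 1.15 in the WT library. The heat shock gene *hsp70l*, named after its values were seen, made up a median of 3.44% of UMIs per CCK1/2-KO member and 2.09% per WT member, against 0.41% (CCK1/2-KO) and 0.0745% (WT) in the other hormone cells. Its log2 ratio was 2.40 in the CCK1/2-KO library and 3.38 in the WT library. *jun*, *atf3*, *gadd45ba* and *hsp70l* were thus higher in prl-rich cells of both libraries, while the other ranked immediate early genes were not past 2-fold in both.

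Prl-rich cells of the CCK1/2-KO library were then set against those of the WT library. Of 2175 ranked genes, 34 were at least 2-fold higher in CCK1/2-KO members (1.56%) and 221 at least 2-fold lower (10.2%). The median log2 ratio was -0.26. WT members held 951702 UMIs against 451167 in CCK1/2-KO members, so genes low in CCK1/2-KO members could be ranked on WT UMIs alone. The ranking thus favoured the lower side, and how much of the median this made was not tested. In the other hormone cells the median was 0.00 over the same genes, which were chosen on the counts of the members. The median of the members moved with that choice. It was -0.11 without the limit on 1 cell and -0.12 with at least 200 UMIs, but -0.34 with at least 20 UMIs and -0.38 with no minimum. Without the members rich in *wu:fj16a03* or globin the median was -0.22, and 33 of the 34 and 172 of the 221 were still past 2-fold. Without the limit on 1 cell, 154 genes were higher in place of 34, or 32.4% of those past 2-fold, against 13.3% with it. The rule's gene *prl*, as a level, had a log2 ratio of -0.17 and *nppal* -0.27, both under 2-fold and near the median.

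*unc5a*, a netrin receptor, had 233 UMIs in 18 CCK1/2-KO members and 96 UMIs in 25 WT members, a log2 ratio of 2.33 (1.98 to 2.69). In the other hormone cells its ratio was -0.13, and in *gh1*-rich cells alone 0.88. *phgdh*, the first enzyme of serine synthesis, had 39 UMIs in 14 CCK1/2-KO members and 16 UMIs in 9 WT members, a ratio of 2.34 (1.47 to 3.28). *ascl1a*, a proneural transcription factor, had 237 UMIs in 17 CCK1/2-KO members and 169 UMIs in 23 WT members, a ratio of 1.54 (1.25 to 1.83). *cox8b*, already one of the genes that separated the members, had 827 UMIs in 31 CCK1/2-KO members and 671 UMIs in 48 WT members, a ratio of 1.36 (1.21 to 1.50). For *cox8b* the ratio was 2.05 in the other hormone cells and 1.55 in *gh1*-rich cells alone, so this difference was not limited to prl-rich cells. The 6 others were *pdlim4* (1.75), *arpp21* (1.97), *zgc:110339* (1.61), *GRID1* (ENSDARG00000074583, 1.50), *znf385b* (1.41) and the Myc gene *myca* (1.83).

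Among the genes lower in CCK1/2-KO members, *cspg5a*, a proteoglycan gene, had 6 UMIs in 5 CCK1/2-KO cells and 129 UMIs in 37 WT cells, a log2 ratio of -3.37 (-4.85 to -2.21). Genes for the RNA-binding proteins *celf5a* (6 UMIs in CCK1/2-KO and 127 in WT, -3.35) and *celf2* (2 in CCK1/2-KO and 51 in WT, -3.62) were also lower. *insig1*, which restrains sterol synthesis, had 3 UMIs in 3 CCK1/2-KO cells and 68 UMIs in 29 WT cells, a ratio of -3.45 (-5.76 to -1.84). In these genes the CCK1/2-KO count was under 10, which sets the width of the intervals. In the other hormone cells the ratios were -1.13 for *cspg5a*, -0.84 for *celf5a*, -0.73 for *celf2* and -0.40 for *insig1*. In *gh1*-rich cells alone they were -1.70 for *cspg5a*, -1.55 for *celf5a*, -0.90 for *celf2* and -0.05 for *insig1*. The lower levels of *cspg5a* and *celf5a* were thus not limited to prl-rich cells.

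2 channel genes stood among them. *cacna1ha*, a T-type calcium channel, had 8 UMIs in 6 CCK1/2-KO members and 103 UMIs in 25 WT members, a ratio of -2.63 (-3.88 to -1.60). The sodium channel beta subunit gene *scn1ba* had 5 UMIs in 3 CCK1/2-KO members and 75 UMIs in 23 WT members, a ratio of -2.85 (-4.52 to -1.57). *BAIAP3*, in mammals a Munc13-related regulator of vesicle release, had 1 UMI in CCK1/2-KO members and 53 UMIs in 16 WT members, a ratio of -4.67 (-10.00 to -2.13). *CHST8*, a sulfotransferase that acts on glycoprotein hormones in mammals, had 30 UMIs in 10 CCK1/2-KO members and 267 UMIs in 27 WT members, a ratio of -2.10. In the other hormone cells together its ratio was -1.59, and in *gh1*-rich cells alone it was -0.02. Most of its UMIs there were in gonadotropin-rich cells, 12 of 223 in the CCK1/2-KO library and 66 of 495 in the WT library. Within gonadotropin-rich cells its level was 1745 in the CCK1/2-KO library and 2371 in the WT library. The part of the makeup of these cells in the ratio was not tested. The remaining 2 were *LHFPL6* (-2.69) and *si:dkeyp-72e1.9* (-2.65).

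**Figure D4:**
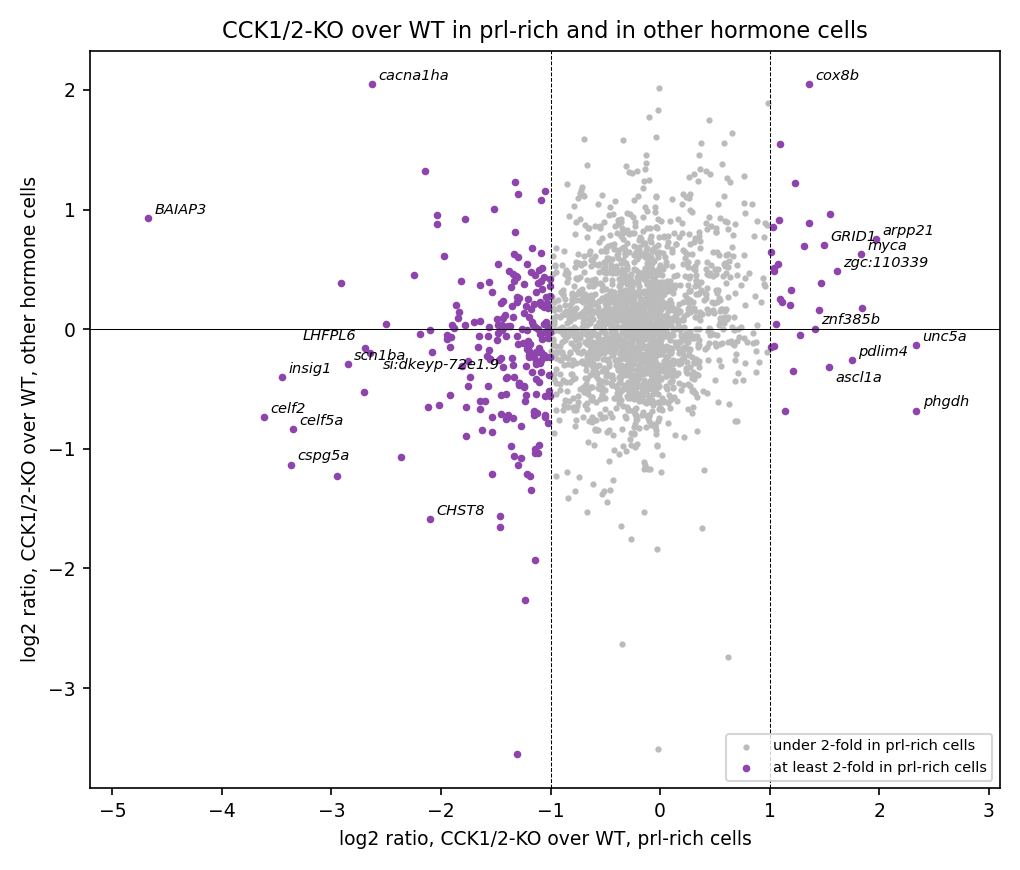
Log2 ratio of CCK1/2-KO over WT in prl-rich cells (x axis) and in the other hormone cells (y axis) for the ranked genes, with dashed lines at 2-fold on the x axis. Purple points are the 34 genes higher and 221 genes lower in CCK1/2-KO prl-rich cells, and *cacna1ha* (-2.63 and 2.05) and *BAIAP3* (-4.67 and 0.93) lie at the upper left.

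The same genes were then read in the other hormone cells. Of the 34 genes higher in CCK1/2-KO members 3 (8.82%) were also at least 2-fold higher there and 0 were 2-fold lower, against 3.26% higher and 2.34% lower there among all 2175 ranked genes. Of the 221 lower genes 19 (8.60%) were also 2-fold lower there and 7 (3.17%) were 2-fold higher. Most of the genes past 2-fold in members were thus under 2-fold in the other hormone cells, as were most ranked genes, and the makeup of those cells differed between the libraries. Whether the ratios differ between the classes was not tested.

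The lists of function are set here against the 1.56% higher and 10.2% lower of all 2175 ranked genes, with their median of -0.26. Steroid and thyroid hormone receptors had 3 of 5 ranked genes lower and 0 higher in CCK1/2-KO members, with a median of -1.28, against 0.31 in the other hormone cells. They were the thyroid hormone receptor *thraa*, with 24 UMIs in 10 CCK1/2-KO and 140 UMIs in 37 WT members (-1.49, interval -2.18 to -0.86), the vitamin D receptor *vdrb* (-1.53) and the retinoic acid receptor *rarab* (-1.28). Channels had 2 of 12 lower, near the 10.2% of all ranked genes (*cacna1ha* and the calcium channel subunit *cacna2d1a*, -1.30). Lineage factors had *ascl1a* higher and *etv5b* lower (-1.29) of 7 ranked. G protein and cAMP signalling had *gnai1* lower of 12 ranked (-1.36), and endoplasmic reticulum genes had *pdia6* lower of 28 (-1.34). Of the 11 granule, 13 exocytosis, 7 immediate early and 5 peptide hormone receptor genes ranked, 0 were past 2-fold, with medians of -0.26, -0.10, 0.32 and 0.27. The granule gene *scg5* was not ranked, with 0 UMIs in CCK1/2-KO members and 48 in WT members, a bound of -2.95 with 3 counts in place of 0. It had 7 UMIs in CCK1/2-KO and 780 UMIs in WT other hormone cells, a log2 ratio of -6.09.

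Variation among the members was described by the variance of Pearson residuals, which is large where counts spread more than depth and counting noise give. Of 1184 genes with enough UMIs in both libraries, the median of the smaller of the 2 libraries' values was 2.56. The top 10 were led by globins (82.1 for *hbba1* ENSDARG00000089087 and 51.4 for *hbaa1*) and *wu:fj16a03* (47.6), the genes of the 2 kinds of members described above. The next were genes held by some prl-rich cells and not by others. *hspb1*, a small heat shock protein gene, had at least 5 UMIs in 4 of 35 CCK1/2-KO and 13 of 72 WT members, and the other hormone cells had 46 (CCK1/2-KO) and 68 (WT) UMIs in all. *atp1b1b*, a beta subunit of the sodium pump, had at least 5 UMIs in 11 CCK1/2-KO and 17 WT members. *tafa5l*, a secreted TAFA-family gene, did so in 5 CCK1/2-KO and 9 WT members. Of the 223 CCK1/2-KO and 495 WT other hormone cells, 15 and 23 reached 5 UMIs of *atp1b1b*, and 28 and 33 of *tafa5l*. The limit of 5 UMIs takes no account of depth. Members past it for *atp1b1b* had a median of 17610 UMIs in CCK1/2-KO and 20492 in WT, against 10715 and 13805 for all members. The members with at least 5 UMIs of *atp1b1b* had a median *prl* share of 12.9% in the CCK1/2-KO library and 13.5% in the WT library, within the middle of the range of all members. The others of the 10 were *hbba1* (ENSDARG00000097238), *ppp2r5cb*, *si:ch211-5k11.8* and *hspa8b*.

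**Figure D5:**
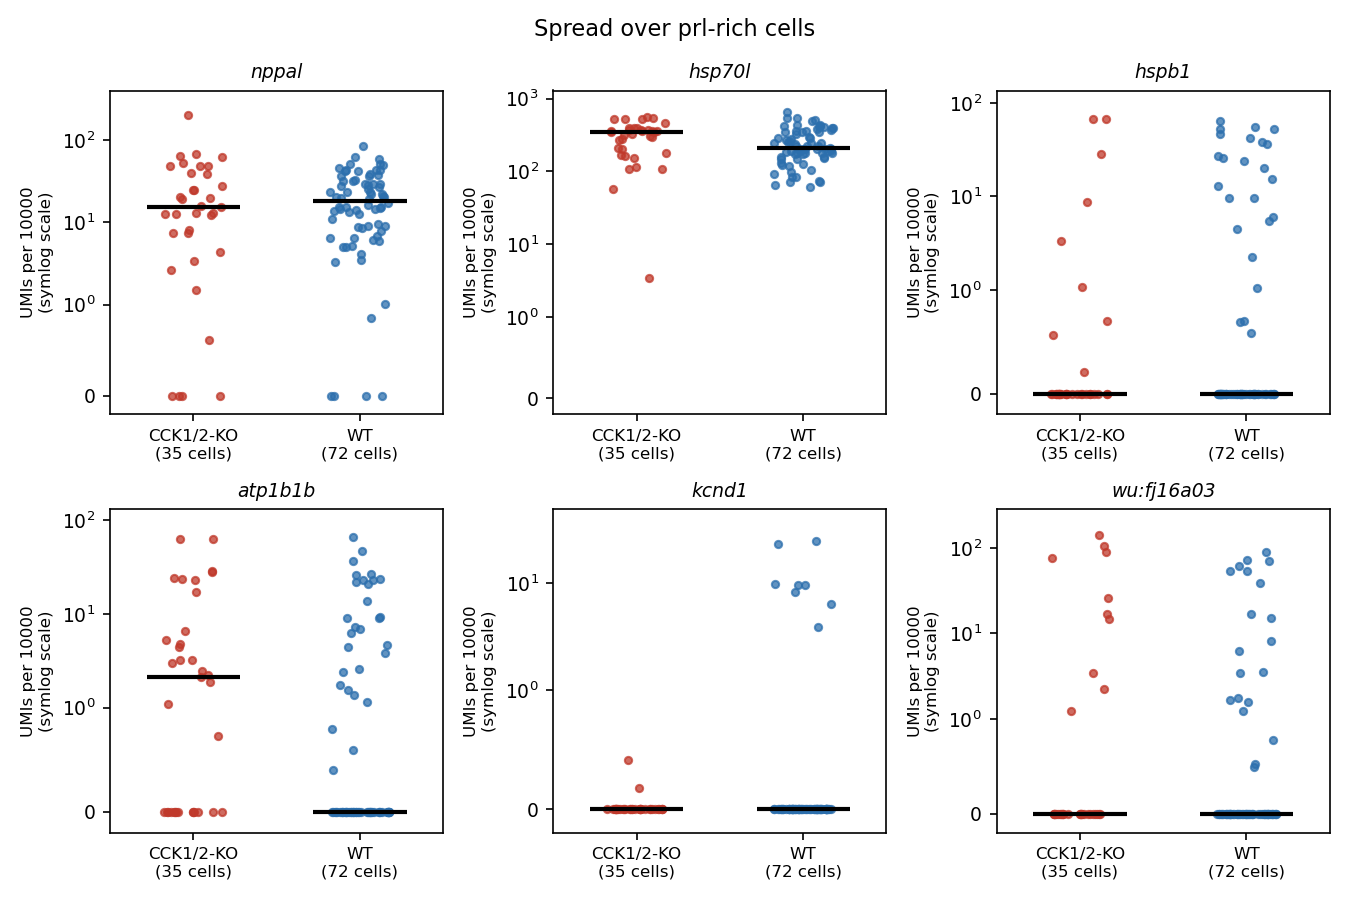
UMIs per 10000 UMIs of 6 genes (y axis, linear near 0 and logarithmic above) in each of the 35 CCK1/2-KO (left in each panel) and 72 WT (right) prl-rich cells, with medians as bars. *nppal* and *hsp70l* are held by nearly every cell, and *hspb1*, *atp1b1b*, *kcnd1* and *wu:fj16a03* by a subset.

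*kcnd1*, a Kv4 potassium channel gene named after its values were seen, had 168 UMIs in 8 of the 72 WT members, each with at least 5, and 2 UMIs in 2 CCK1/2-KO members. The other hormone cells held 4 CCK1/2-KO and 13 WT UMIs. *DPP6*, for the Kv4 auxiliary subunit, was found more widely, in 18 CCK1/2-KO and 44 WT members.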

How the data were processed

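Whole pituitaries were profiled by droplet single-cell RNA sequencing. The deposited values are UMI counts per gene and barcode, which the authors made without further normalization. The submitters' processing notes name Cell Ranger, Seurat and GRCz11, with no versions. The deposited barcodes are 20 letters long. No row named no gene, and no columns of other samples were used.

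For each class, a gene's UMIs were added up over its cells and divided by the class total outside the hormone genes. Levels have exact Poisson intervals, log2 ratios exact conditional intervals and shares Clopper-Pearson intervals, at 95%. A count of 0 was replaced by 3 counts per group for bounds. With 1 library per genotype no test was run. The classes were cells with at least 5% *gh1*, at least 2% *pomca*, or at least 2% *lhb* and *fshb*, and under 1% *prl*, and globin-dominated barcodes had at least 20% globin and 500 UMIs.

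Named genes were the members of 24 lists, the 20 highest and 5 lowest genes by the smaller of the libraries' log2 ratios over the other hormone cells, the 10 highest and 10 lowest between genotypes by the nearer interval limit, and the 10 most variable (residual variance, theta 100). Of 504 listed symbols, 456 matched rows. Of 32057 genes, 8368 took a symbol from a reference table of gene names. The members and lists were chosen with earlier results of these data known. Ratios were checked on counts simulated with counting error alone, which cannot show how the intervals hold where cells vary more than that. Alternatives were other *prl*, depth and count limits, another scaling, means over cells, *gh1*-rich cells alone, doublet removal and members left out. Scripts ran in Python 3.11.15 with scipy 1.17.1, scanpy 1.11.5 (for Scrublet), pandas 2.3.3, matplotlib 3.10.9 and numpy 2.4.6.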

Additional observations from a re-analysis of the deposited data

Results flagged for a closer look

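In 4 of the 20 genes named between genotypes the prl-rich cells and the other hormone cells went opposite ways, each with a counting interval on its own side of 0. *phgdh* had a log2 ratio of CCK1/2-KO over WT of 2.34 (1.47 to 3.28) in prl-rich cells and -0.68 (-0.98 to -0.39) in the other hormone cells. For *ascl1a* the ratio was 1.54 (1.25 to 1.83) in prl-rich cells and -0.32 (-0.52 to -0.12) in the other hormone cells. *BAIAP3* had -4.67 (-10.00 to -2.13) in prl-rich cells and 0.93 (0.83 to 1.03) in the other hormone cells. *cacna1ha* had -2.63 (-3.88 to -1.60) in prl-rich cells and 2.05 (1.77 to 2.33) in the other hormone cells. In *gh1*-rich cells alone the ratios were -1.49 for *phgdh*, -0.74 for *ascl1a*, 1.41 for *BAIAP3* and 1.68 for *cacna1ha*, so the direction there was that of the other hormone cells together. With 1 library per genotype the differences between cell classes were not tested.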

How the results depend on the processing

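No paired analysis was possible because each genotype has 1 library. The 20 genes named between genotypes were past 2-fold in the same direction under every alternative run (420 of 420 values), and of the ratios against other hormone cells 1157 of 1166 were. Nearly all of these genes were chosen for extreme ratios in the same cells, so this is not an independent check. Part of the 420 and 1166 values could not differ from the main ones. Limits on a gene's UMIs and on 1 cell decide which genes are ranked and leave each ratio as it is. Removing top-scoring doublet barcodes and limiting thyrotropin and somatolactin genes took out no member, so the genotype ratios were the same there. *pou1f1* came under 2-fold in the WT library in 6 of the alternatives (-0.81 to -0.99 on the log2 scale). Against *gh1*-rich cells alone *si:dkey-14d8.6* (0.76) and *RBFOX3* (2.19) turned round in the CCK1/2-KO library, each on under 10 UMIs in members. The *prl* level of CCK1/2-KO members was 13.0% with a limit of 1% *prl*, 15.5% with 5%, 18.4% with 10% and 16.7% without the 5% deepest members, and that of WT members was 15.8% with 5%, 16.9% with 10% and 15.9% without the deepest. Members left out were chosen after the data were seen. The level was 17.2% in CCK1/2-KO and 16.5% in WT members without those rich in *wu:fj16a03*, 15.4% (CCK1/2-KO) and 15.7% (WT) without the globin-marked, 16.9% (CCK1/2-KO) and 16.6% (WT) without either, and 16.7% without the 2 deepest CCK1/2-KO members. With a limit of 10% *prl* the members were 1.37% of CCK1/2-KO passing barcodes. Without either kind they were 2.34% of WT passing barcodes and 9.84% of WT hormone cells. Genes higher than in other hormone cells numbered 73 with 10% *prl* and 425 without the limit on 1 cell, and 370 were lower with at least 200 UMIs. Between genotypes 56 were higher and 555 lower with at least 20 UMIs, 85 and 774 with no minimum, 12 and 27 with at least 200, and 58 and 345 with means over cells, while 154 were higher without the limit on 1 cell. Without the limit on 1 cell genes higher were 31.0% of those past 2-fold against other hormone cells and 32.4% between genotypes. With at least 200 UMIs they were 30.8% between genotypes. Lower genes were the more numerous in each case. The set of cells with more UMIs could meet the count limits alone, so these alternatives cannot check that lean. Depth limits the 35 CCK1/2-KO members most, where a gene with under 10 UMIs has a wide interval.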
